A study of Mus musculus with 6 samples.

Results

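The mRNAs of the cytosolic ribosomal proteins were examined in the left ventricle of mice that lack the corepressor NCoR1 in cardiomyocytes. The members were the genes of the count table whose symbol is that of a protein of the large (Rpl) or small (Rps) subunit of the cytosolic ribosome, a stalk protein (Rplp0, Rplp1 and Rplp2), Rpsa, or a paralog of one of these such as Rpl3l. The rule took 83 of 17121 genes, 51 of the large and 32 of the small subunit, and used no measured value. Enough reads for a test were found for 81 of the 83, among 13040 genes tested in all. Rps13 and Rpl39l had too few reads, with 4 to 9 counts of Rps13 in CMNKO mice and 4 to 16 in LC mice, and 1 to 5 counts of Rpl39l in CMNKO mice and 0 to 1 in LC mice.

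Each cytosolic ribosome is built from ribosomal RNA and from one copy of most of these proteins, so their mRNAs are usually made in step. Their translation is set by mTOR through a run of pyrimidines at the very 5′ end of the mRNA, the TOP motif, and growth of a cardiomyocyte in hypertrophy is known to call for more ribosomes. Striated muscle has in addition Rpl3l, a paralog that can take the place of the ubiquitous Rpl3 near the peptidyl transferase centre.

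Left ventricles were taken for RNA-sequencing from 3 cardiomyocyte-specific NCoR1 knockout (CMNKO) mice and 3 littermate control (LC) mice, with 1 library per mouse. All mice had the C57BL/6 background and were 2 months old. CMNKO mice came from a cross of mice with a floxed NCoR1 gene to mice that express Cre from the αMHC promoter, which is active in cardiomyocytes, so that other cells of the ventricle keep the gene. The mice are named by the numbers in the labels, CMNKO 16, CMNKO 17 and CMNKO 18, and LC 15, LC 25 and LC 26. No library of αMHC-Cre mice without the floxed gene was analysed here, and in whole tissue fewer cells of a type and less RNA per cell cannot be told apart.

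The libraries held 6319488 to 8752609 counts. Levels are given as CPM (counts scaled to a common library size) after TMM scaling of the libraries. Ncor1, the deleted gene, had 50.5, 51.3 and 42.4 CPM in CMNKO mice, against 111, 102 and 90.7 CPM in LC mice (log2 fold change -1.07, standard error (SE) 0.13, adjusted p = 0.00845 from the quasi-likelihood test of edgeR, adjusted after Benjamini and Hochberg). Leaving out CMNKO 16, CMNKO 17 or CMNKO 18 gave an adjusted p of 0.0862, 0.0759 or 0.0536 with log2 fold changes of -1.11, -1.12 and -0.99. The library numbers in the labels of LC 15 and the 3 CMNKO libraries follow each other, while those of LC 25 and LC 26 are higher. These runs of numbers are called library series here, and the labels do not say whether they are batches. The series of LC 25 and LC 26 holds only LC mice, so that a fit that includes the series has LC 15 as its single control. Mitochondrially encoded genes took 25.6% to 26.9% of the counts in CMNKO mice, against 25.6% in LC 15, 34.9% in LC 25 and 31.5% in LC 26. Markers of cardiomyocytes were abundant, with summed levels of 63297 to 69860 CPM in CMNKO mice and 61592 to 74283 CPM in LC mice over 8 genes.

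The transcription start regions of the members show the sequence feature by which the family is known. RefSeq (GRCm38.p6) gave a start region for 62 of the 83 members. A run of at least 6 pyrimidines, reaching within 5 bases of the annotated start, was present in 30 of them (48.4%), against 20.0% of 27025 genes with such a region. The 30 bases around the start, 15 before and 15 after it, are shown for members with a run and members without one among those described below, with the run in capitals.
Rps21 (chr2:180257364-180257393, plus strand): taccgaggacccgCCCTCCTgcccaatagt
Rpl18 (chr7:45718056-45718085, plus strand): tgcgtctcgcaggccgCTCTTTCCCCgccc
Rplp2 (chr7:141447636-141447665, plus strand): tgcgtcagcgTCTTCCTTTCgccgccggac
Rps6 (chr4:86857353-86857382, minus strand): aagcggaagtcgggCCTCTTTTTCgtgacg
Rpl37a (chr1:72711245-72711274, plus strand): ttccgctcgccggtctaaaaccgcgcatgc
Rpl39 (chrX:37085208-37085237, minus strand): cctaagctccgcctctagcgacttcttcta
Rplp0 (chr5:115559452-115559481, plus strand): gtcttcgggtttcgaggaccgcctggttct
Rpl3l (chr17:24727811-24727840, plus strand): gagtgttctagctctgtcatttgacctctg
The first 4 windows hold such a run and the last 4 do not. Rpl39 has pyrimidines in a row (cttcttct) further after the start, beyond the 5 bases, and they were not counted. An annotated start can lie some bases from the start that is used. A missing run says only that no run reached within 5 bases of the annotated start.

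The 250 bases before the start were searched for short motifs on both strands. The letters CTTCCG, the core that ETS factors recognise, were found in 51.6% of the 62 members against 13.8% of all genes, and not in Rpl3l. CANNTG, the E-box recognised by myogenic and other helix-loop-helix factors, was found in 45.2% of members against 66.1% of all genes. It occurs 3 times before Rpl3l, shown in capitals because Rpl3l is known as the paralog of striated muscle.
Rpl3l upstream (chr17:24727576-24727825, plus strand): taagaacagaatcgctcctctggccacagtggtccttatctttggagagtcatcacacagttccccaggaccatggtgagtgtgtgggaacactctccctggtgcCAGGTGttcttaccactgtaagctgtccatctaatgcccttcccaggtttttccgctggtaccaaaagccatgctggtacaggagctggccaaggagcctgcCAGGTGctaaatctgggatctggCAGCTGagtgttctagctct
The MEF2 motif was found in 0 of the 62 members and in 1.75% of all genes. AGGTCA, letters that nuclear receptors recognise, was found in 8.06% of members and 13.8% of all genes, and TATAAA in 6.45% of members and 13.0% of all genes. Neither the MEF2 motif, AGGTCA nor TATAAA is in the 250 bases before Rpl3l. Bases after the start were not searched, and there the Rpl3l window printed above holds AGGTCA on the other strand. These matches are a description of letters and not of binding.

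Members with and without a pyrimidine run had similar medians in the comparison of genotypes. The median log2 fold change, CMNKO over LC, was -0.24 over the 29 tested members with a run, -0.28 over the 31 without one and -0.26 over the 21 with no start region in the table.

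The levels of the members ranged widely, and the way reads were counted bears on them. Mean levels over the 6 mice ran from 1.37 to 649 CPM with a median of 97.0 CPM over the 81 tested members. The 5 highest were Rps2 (649 CPM), a small subunit protein at the mRNA entry channel, Rplp1 (608 CPM) and Rplp0 (512 CPM) of the stalk that recruits elongation factors, Rpl4 (498 CPM), which lines the exit tunnel, and Rpsa (412 CPM), a small subunit protein also known as the laminin receptor. Per kilobase of the principal transcript, Rplp1 stood at 1218 CPM per kb, Rps15, named after its values were seen, at 790 and Rps2 at 593 CPM per kb. The 5 lowest were Rpl39l (0.232 CPM), Rps13 (1.03 CPM), Rps27 (1.37 CPM), Rpl28 (2.19 CPM) and Rps23 (3.43 CPM).

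Ribosomal protein genes have many processed pseudogenes, copies that can attract the reads of the parent mRNA. The table holds 88 rows named as pseudogenes of 44 members, with 51295 counts in all, or 8.90% of the counts of members and these rows together. For 15 members these rows held more counts than the gene's own row. Rpl17 had 174 counts over the 6 mice and its pseudogene rows 5316, or 96.8% of the sum. Among the others, named after these counts were seen, the share was 95.5% for Rps13, 93.5% for Rps27a, 91.7% for Rps12, 86.2% for Rpl28, 75.3% for Rps27 and 74.4% for Rps23. The low levels of these members therefore depend on the counting, and the order of levels among members is uncertain.

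**Figure D1:**
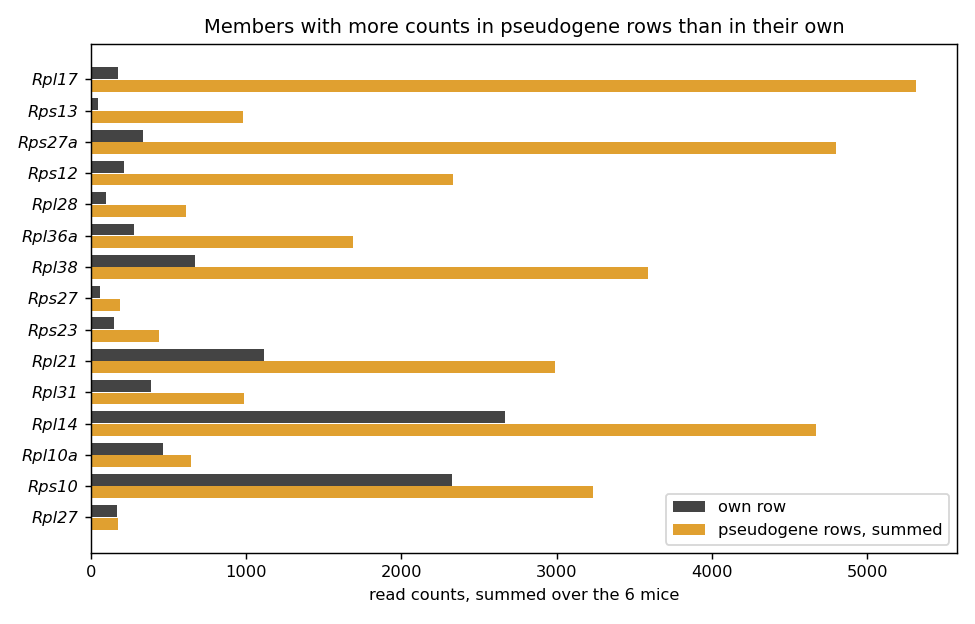
Read counts summed over the 6 mice (horizontal axis) for the 15 members whose pseudogene rows together hold more counts (light bars) than their own row (dark bars), ordered by the pseudogene share. Rpl17, at the top, had 174 counts in its own row against 5316 in its pseudogene rows.

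The members as a group sat slightly lower in CMNKO mice, but none passed the test. The median log2 fold change over the 81 tested members was -0.26 (middle 50% of values -0.37 to -0.15), with 72 negative and 9 positive values, beside a median of 0.00 over all 13040 genes. By edgeR at a Benjamini-Hochberg adjusted p of 0.05, 0 members were higher and 0 lower in CMNKO mice, where 35 genes (0.268%) were higher and 44 genes (0.337%) lower among all genes tested. DESeq2 called 1 member lower, Rps21, where it called 146 genes lower and 215 higher among all 13040 genes tested. By limma-voom 0 members were called, where 49 genes were lower and 45 higher. At an unadjusted edgeR p under 0.05, 26 members (32.1%) were lower, 16 of the large and 10 of the small subunit, where 8.8% of all genes were. In the other direction 1 member (1.23%), Rplp2, was under that p, where 10.1% of all genes were. In 26 members (32.1%) all 3 CMNKO mice were below all 3 LC mice, as in 12.3% of all genes, and in 0 members were they all above, as in 11.2% of all genes.

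Both subunits had similar medians, -0.26 over 50 large subunit members and -0.28 over 31 small subunit members. The SE of single members was 0.15 at the median, so a single log2 fold change of the size of the median is not told from 0 with 3 mice a group. The count of 26 fell to 7 without LC 26, to 5 with library series in the model, to 9 with library totals as the only scaling and to 13 after correction for transcript GC content and length, and was 48 without LC 15. Without CMNKO 17 it was 11, without CMNKO 18 it was 14 and without CMNKO 16 it was 17. The share of all genes at that p was not computed under these settings. These changes are therefore not told from changes over all genes. Calls over all genes at an adjusted p under 0.05 moved too, from 79 to 2624 without LC 15 and to 0 without CMNKO 16 or CMNKO 17.

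**Figure D2:**
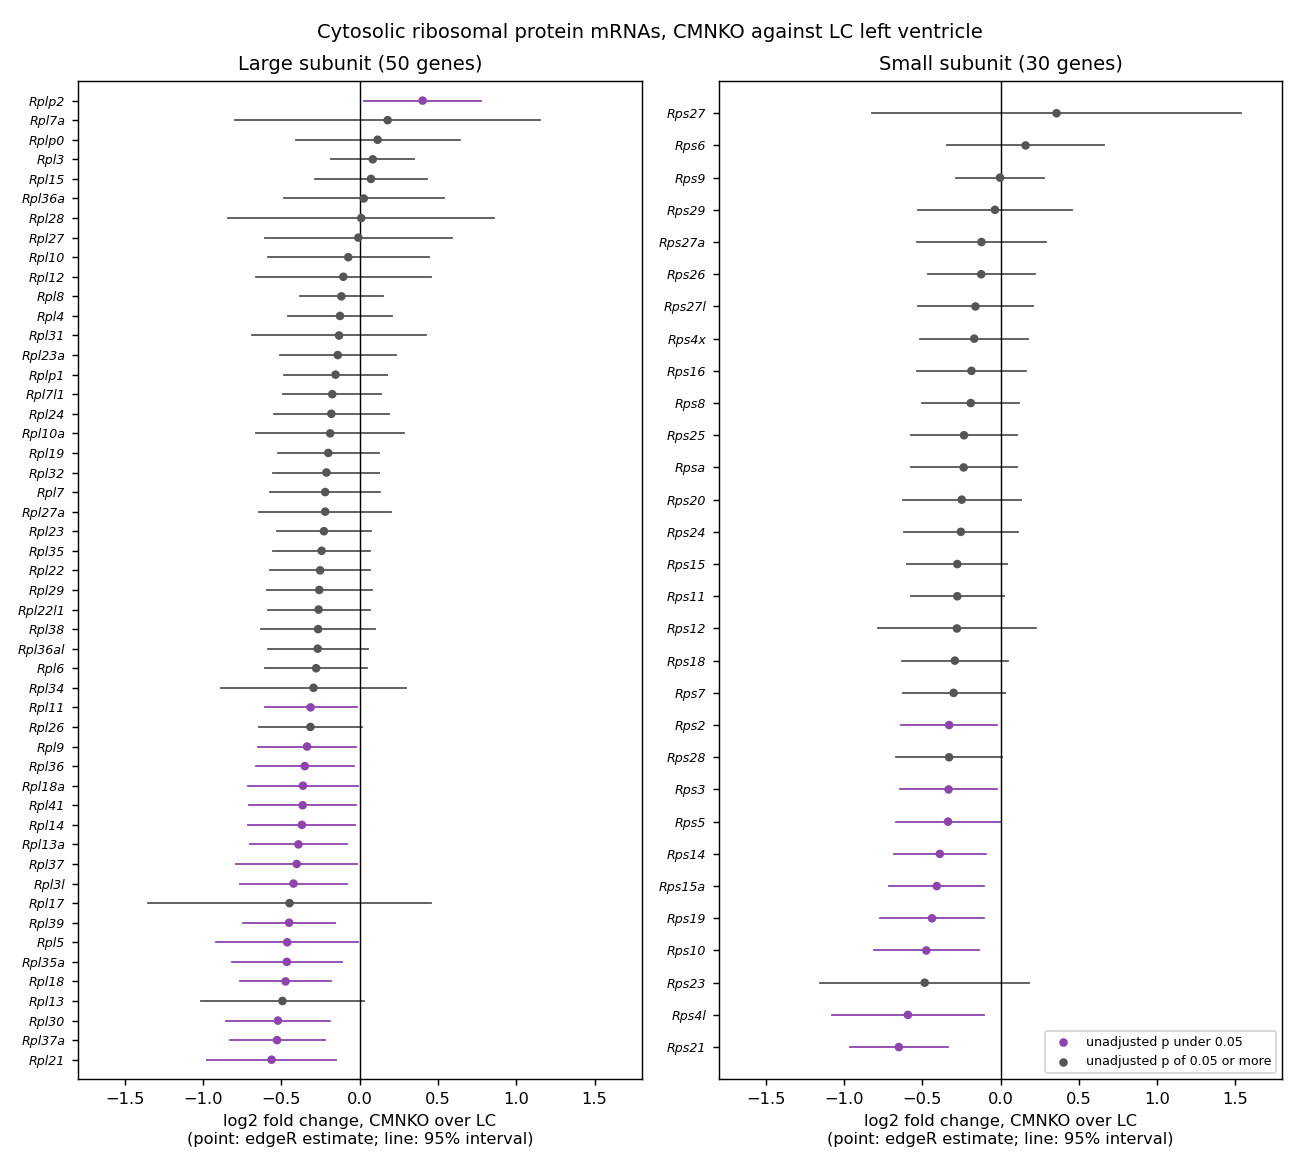
Log2 fold change, CMNKO over LC (horizontal axis), of the 50 tested large subunit members (left) and of 30 of the 31 tested small subunit members (right), with edgeR estimates as points and 95% intervals as lines, coloured where the unadjusted p was under 0.05. Most points lie left of 0, from Rps21 at -0.65 to Rplp2 at 0.40.

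Rps21, a small subunit protein whose start region with its pyrimidine run is shown above, had the smallest p of the members. It had 108, 111 and 119 CPM in CMNKO mice, against 150, 170 and 210 CPM in LC mice. The groups did not overlap, and the lowest LC mouse was LC 15. The log2 fold change was -0.65 (SE 0.14, unadjusted p = 0.000814, adjusted p = 0.0717 by edgeR). The adjusted p was 0.00889 by DESeq2 and ran from 0.00206 without LC 15 to 0.521 with library series in the model.

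Rpl37a, a zinc-binding large subunit protein, had 70.3, 80.8 and 76.8 CPM in CMNKO mice, against 98.3, 102 and 128 CPM in LC mice (log2 fold change -0.53, SE 0.14, edgeR adjusted p = 0.104). Rpl18, also of the large subunit, had 178, 178 and 189 CPM in CMNKO mice, against 229, 234 and 293 CPM in LC mice (log2 fold change -0.47, SE 0.13, edgeR adjusted p = 0.113). In both genes LC 15 and LC 25 were close to each other and LC 26 stood above them, and no CMNKO mouse reached the lowest LC mouse.

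Rpl30, a large subunit protein, had 142, 135 and 139 CPM in CMNKO mice, against 172, 178 and 246 CPM in LC mice (log2 fold change -0.52, SE 0.15, edgeR adjusted p = 0.123). Rpl39, a small protein of the exit tunnel, had 93.5, 96.7 and 92.8 CPM in CMNKO mice, against 111, 127 and 149 CPM in LC mice (log2 fold change -0.45, SE 0.13, edgeR adjusted p = 0.131). The CMNKO mice lay close to each other in both genes, and the LC mice were spread over a wider range with LC 26 at the top.

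The sizes of these differences depended on the processing. After the GC content and length correction the log2 fold change was -0.36 for Rps21, -0.24 for Rpl37a and -0.18 for Rpl39. With library series in the model it was -0.42 for Rps21, -0.32 for Rpl30 and -0.24 for Rpl39, and without LC 26 it was -0.34 for Rpl30. Without LC 15 the edgeR adjusted p was 0.00811 for Rpl37a, 0.0109 for Rpl18, 0.00973 for Rpl30 and 0.00734 for Rpl39, and over all alternatives it reached 0.612 for Rpl37a, 0.665 for Rpl18, 0.734 for Rpl30 and 0.777 for Rpl39.

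Of the 9 members with a positive log2 fold change, Rplp2 had the smallest p. This stalk protein had 149, 166 and 174 CPM in CMNKO mice, against 156, 95.6 and 119 CPM in LC mice (log2 fold change 0.40, SE 0.17, unadjusted p = 0.0379, edgeR adjusted p = 0.238). LC 15 lay within the CMNKO range, and only LC 25 and LC 26 were below it. The log2 fold change was 0.06 with library series in the model (edgeR adjusted p = 0.968), 0.25 without LC 25 (edgeR adjusted p = 0.524) and 0.60 without LC 15 (edgeR adjusted p = 0.00932), the lowest adjusted p among the alternatives.

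The other stalk proteins did not share that pattern. Rplp0, which anchors the stalk to the ribosome, had 511, 625 and 461 CPM in CMNKO mice, against 502, 305 and 668 CPM in LC mice (log2 fold change 0.11, SE 0.24, edgeR adjusted p = 0.814). Rplp1, the partner of Rplp2, had 640, 565 and 521 CPM in CMNKO mice, against 572, 585 and 765 CPM in LC mice (log2 fold change -0.15, SE 0.15, edgeR adjusted p = 0.585). The low value of Rplp0 in LC 25 was not seen in Rplp1. Rplp0 turned negative without LC 25 (-0.14) and without CMNKO 17 (-0.02), and Rplp1 turned positive with library series in the model (0.01) and after the GC content and length correction (0.03).

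LC 25 was low in another member too. Rpl7a, a large subunit protein chosen after its values were seen, had 52.4, 32.7 and 60.1 CPM in CMNKO mice, against 54.9, 11.4 and 61.6 CPM in LC mice (log2 fold change 0.18, SE 0.44, edgeR adjusted p = 0.846). The value of LC 25 rests on 71 counts, against 352 and 470 counts in the other LC mice.

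Some other members with a positive value rested on few reads. Rps6, the small subunit protein phosphorylated downstream of mTOR, had 8.45, 8.66 and 7.53 CPM in CMNKO mice, against 5.15, 9.17 and 7.73 CPM in LC mice (log2 fold change 0.16, SE 0.23, edgeR adjusted p = 0.716), and the sign turned without LC 15 (-0.04). Rps27 rested on 10 to 14 counts in CMNKO mice and 2 to 15 counts in LC mice (log2 fold change 0.36, SE 0.54, edgeR adjusted p = 0.731), and was negative with the pseudogene rows added (-0.06) and without LC 15 (-0.08). Rpl36a (log2 fold change 0.03, SE 0.23, edgeR adjusted p = 0.961) and Rpl28 (log2 fold change 0.01, SE 0.39, edgeR adjusted p = 0.993), both of the large subunit, were close to 0 and were also negative with the pseudogene rows added.

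Of the most abundant members, Rps2, Rpl4 and Rpsa are given here beside the stalk proteins above. Rps2 had 537, 571 and 618 CPM in CMNKO mice, against 751, 614 and 803 CPM in LC mice (log2 fold change -0.33, SE 0.14, edgeR adjusted p = 0.236). Rpl4 had 507, 491 and 432 CPM in CMNKO mice, against 447, 484 and 629 CPM in LC mice (log2 fold change -0.13, SE 0.15, edgeR adjusted p = 0.666), with the sign turned by library totals (0.00), by the library series as a term (0.09) and without LC 26 (0.03). Rpsa had 413, 383 and 338 CPM in CMNKO mice, against 398, 396 and 542 CPM in LC mice (log2 fold change -0.24, SE 0.15, edgeR adjusted p = 0.413). In all 3 genes the highest mouse was LC 26, and the CMNKO and LC ranges overlapped.

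One control mouse stood above the others across the family. LC 26 was the highest of the 6 mice in 69 of the 81 members (85.2%), beside 22.9% of all genes tested. CMNKO 18 was the lowest in 41 members, and the share of all genes lowest in that mouse was not computed. The members' median deviation from their mean over the 6 mice, on the log2(CPM + 0.5) scale, was -0.02 in CMNKO 16, -0.12 in CMNKO 17 and -0.20 in CMNKO 18, against -0.05 in LC 15, 0.06 in LC 25 and 0.39 in LC 26. The same median over all genes was 0.00 to 0.01 in every mouse. LC 15 lay among the CMNKO mice on this scale.

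The same was seen in ratios between libraries. Over LC 15, the control of the same library series, CMNKO mice had a median log2 ratio of -0.07 over the members, with 30 of 81 positive. LC 25 and LC 26 over LC 15, a contrast among controls alone, had a median of 0.31, with 71 of 81 positive. LC 26 over LC 25 had a median of 0.33, with 76 of 81 positive. Among all genes tested, 51.2%, 51.4% and 50.4% were positive in these ratios, in the same order. The median of the members' fitted log2 fold changes was -0.13 without LC 26, -0.07 with library series in the model, and -0.35 without LC 15, the fit in which genotype and library series cannot be told apart.

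**Figure D3:**
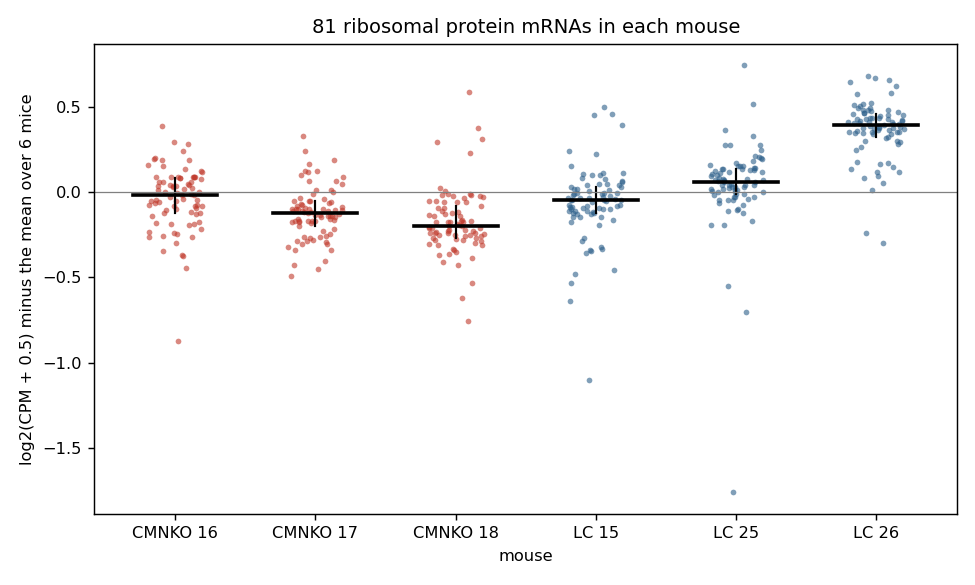
Deviation of each of the 81 tested members from its own mean over the 6 mice, in log2(CPM + 0.5) units (vertical axis), by mouse, with a thick line at the median and a thin line over the middle 50% of members. The members of LC 26 lie mostly above 0 (median 0.39), and LC 15 (median -0.05) lies among the CMNKO mice (medians -0.20 to -0.02).

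The share of the library taken by the members was lower in CMNKO mice on average, and the ranges overlapped with or without the mitochondrially encoded genes in the base. The members took 1.16%, 1.15% and 1.06% of all counts in CMNKO mice, against 1.17%, 1.11% and 1.41% in LC mice. The means were 1.13% ± 0.05 in CMNKO mice and 1.23% ± 0.16 in LC mice (SD, n = 3 each), a difference of -0.10 percentage points. Of the counts outside mitochondrially encoded genes, they took 1.59%, 1.56% and 1.43% in CMNKO mice, against 1.58%, 1.70% and 2.05% in LC mice, with means of 1.53% ± 0.09 and 1.78% ± 0.25 (SD, n = 3 each). The Wilson 95% intervals of the single shares were no wider than 0.0122 percentage points to each side, cover counting error only, and are small beside the spread between mice. Without LC 26 the difference over all counts was -0.01 percentage points.

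Counts of large subunit members over counts of small subunit members did not overlap between the groups. The ratio was 1.19, 1.19 and 1.19 in CMNKO mice, against 1.14, 1.10 and 1.16 in LC mice. Leaving out Rplp0, Rplp1 and Rplp2, a choice made after the values were seen, gave 0.942, 0.919 and 0.942 in CMNKO mice, against 0.911, 0.928 and 0.936 in LC mice, and the groups then overlapped.

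**Figure D4:**
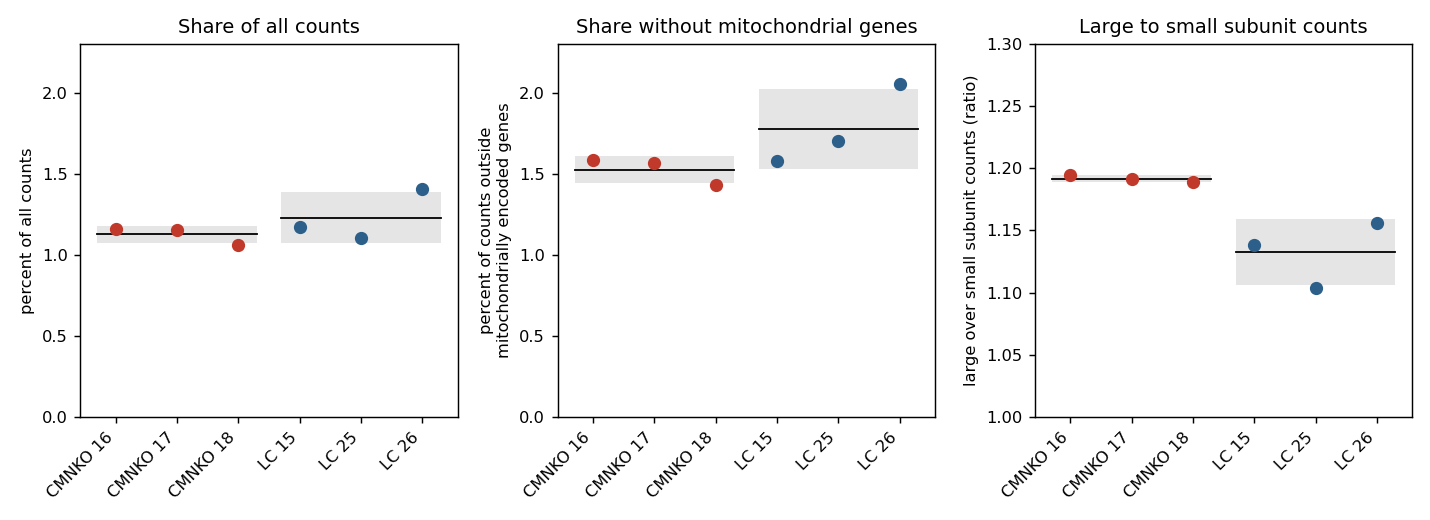
Percent of all counts (left) and of counts outside mitochondrially encoded genes (middle) in the members, and counts of large over small subunit members (right, axis from 1.0), by mouse, with the group mean as a line, ± 1 SD as a band and Wilson 95% intervals on the shares that are smaller than the points. LC 26 is the highest in both shares (1.41% and 2.05%), and in the ratio the CMNKO mice (1.19) lie above the LC mice (1.10 to 1.16).

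Rpl3l was the more abundant of the Rpl3 pair in every ventricle. Its ratio to Rpl3 was lower in the 3 CMNKO mice than in the LC mice, with p = 0.1 by the exact permutation test given below. Rpl3l had 167, 150 and 202 CPM in CMNKO mice, against 272, 201 and 223 CPM in LC mice. The groups met at the edge, CMNKO 18 at 202 CPM and LC 25 at 201 CPM. The log2 fold change was -0.42 (SE 0.16, unadjusted p = 0.0197, adjusted p = 0.188 by edgeR), and its adjusted p ran from 0.128 to 0.479 over the alternatives. Rpl3 had 90.9, 83.7 and 84.1 CPM in CMNKO mice, against 76.7, 78.2 and 89.3 CPM in LC mice (log2 fold change 0.08, SE 0.12, edgeR adjusted p = 0.724). Among the members, which mostly had negative values, Rpl3 had one of the 9 positive ones.

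A ratio of 2 genes within a library does not depend on how libraries are scaled. Rpl3l counts over Rpl3 counts gave 1.84, 1.79 and 2.40 in CMNKO mice, against 3.55, 2.57 and 2.49 in LC mice. All CMNKO mice lay below all LC mice, though CMNKO 18 was close to LC 26. The mean ratio was 2.01 ± 0.34 in CMNKO mice and 2.87 ± 0.59 in LC mice (SD, n = 3 each), and 1.98 and 2.82 per kilobase of transcript. The mean log2 ratio differed by -0.51 (exact permutation test, two-sided, p = 0.1, and 0.2 after Benjamini-Hochberg adjustment over 4 pairs). With 3 mice against 3 this test cannot give a p below 0.1. Here LC 15 was the highest mouse and LC 26 the lowest of the LC mice, the reverse of their order in the family as a whole. Leaving out single mice gave differences of -0.64 to -0.35, and adding the pseudogene rows -0.53.

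**Figure D5:**
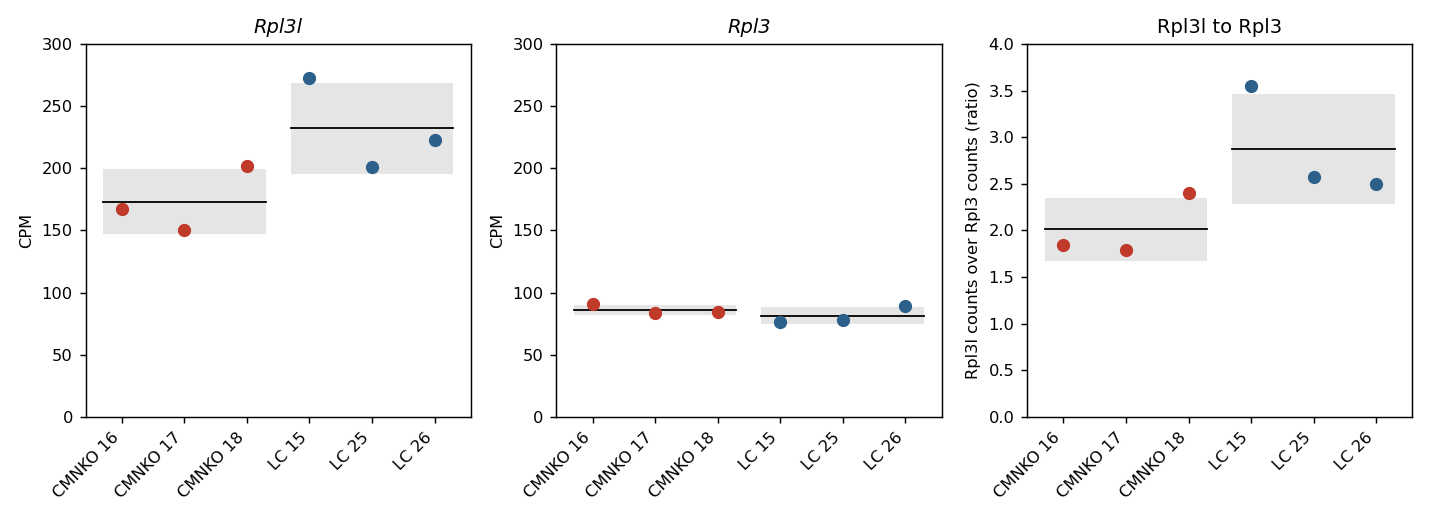
Level in CPM of Rpl3l (left) and Rpl3 (middle), and Rpl3l counts over Rpl3 counts (right), by mouse, with the group mean as a line and ± 1 SD as a band. Rpl3 was at 83.7 to 90.9 CPM in CMNKO mice and 76.7 to 89.3 CPM in LC mice, and the ratio was 1.79 to 2.40 in CMNKO mice and 2.49 to 3.55 in LC mice.

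Other pairs of a paralog and its parent were compared in the same way. Rpl36al, a copy of Rpl36a, had counts 10.9, 12.4 and 11.1 times those of Rpl36a in CMNKO mice, against 16.03, 13.19 and 13.5 times in LC mice (log2 difference -0.31, exact permutation p = 0.1, adjusted 0.2). That difference turned to 0.08 when pseudogene rows, which hold 85.9% of the reads of Rpl36a and its pseudogenes, were added to the parent. Rpl22l1 over Rpl22 averaged 0.181 ± 0.02 in CMNKO mice and 0.182 ± 0.03 in LC mice (SD, n = 3 each, exact permutation p = 1). Rpl7l1 over Rpl7 averaged 0.114 ± 0.01 in CMNKO mice and 0.112 ± 0.02 in LC mice (SD, n = 3 each, exact permutation p = 0.8). Both of those differences changed sign without single mice.

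By gene, Rpl36al had 76.5, 69.2 and 67.2 CPM in CMNKO mice, against 75.0, 78.5 and 103 CPM in LC mice (edgeR adjusted p = 0.333). Rps27l, a paralog of Rps27 known as a p53 target, had 54.6, 51.8 and 37.2 CPM in CMNKO mice, against 49.1, 50.2 and 61.1 CPM in LC mice (edgeR adjusted p = 0.609). The counts of Rps27 and Rpl39l were too few for a ratio to be tested. Rps4l, a paralog of Rps4x that was named after its values were seen and for which no ratio was tested, had 12.8, 8.803 and 8.16 CPM in CMNKO mice, against 17.2, 11.7 and 16.1 CPM in LC mice (log2 fold change -0.59, SE 0.22, edgeR adjusted p = 0.193). The ranges overlapped through CMNKO 16 and LC 25. Reads of near-identical copies can be split between them by the counting, so each of these ratios is uncertain to that extent.

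The genes that make, regulate and survey ribosomes were described from lists. Of 49 tested ribosome biogenesis genes 1 rose and 0 fell (median log2 fold change -0.07). The gene was Rrp12, a factor in maturation and export of both subunits, with 25.3, 35.8 and 25.2 CPM in CMNKO mice, against 13.9, 11.4 and 13.1 CPM in LC mice (log2 fold change 1.16, SE 0.18, edgeR adjusted p = 0.0207). The groups were far apart, but the adjusted p was above 0.05 without any one mouse other than LC 15. It was 0.0862 without CMNKO 16, 0.117 without CMNKO 17, 0.0542 without CMNKO 18, 0.0625 without LC 25 and 0.0775 without LC 26, 0.0535 after the GC content and length correction and 0.197 with library series in the model. Of the same list, Tcof1 (treacle, log2 fold change 0.76, edgeR adjusted p = 0.112) and Ebna1bp2 (a large subunit assembly factor, log2 fold change -0.39, edgeR adjusted p = 0.168) had the next smallest p.

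In the other 5 lists edgeR called 0 genes in either direction, limma-voom called 0, and DESeq2 called Polr1e alone. At an unadjusted edgeR p under 0.05, 8.8% of all genes were lower and 10.1% higher, shares to set beside the counts of each list below. The 16 tested genes of RNA polymerase I transcription had a median log2 fold change of 0.08, with 2 lower and 0 higher at an unadjusted p under 0.05. Polr1e, a subunit of the polymerase, had 18.1, 18.4 and 17.3 CPM in CMNKO mice, against 22.8, 31.2 and 32.4 CPM in LC mice (log2 fold change -0.68, SE 0.17, edgeR adjusted p = 0.0899). Taf1a, part of the promoter selectivity factor, had a log2 fold change of -0.63 (edgeR adjusted p = 0.105), and Ubtf, the upstream binding factor, one of 0.31 (edgeR adjusted p = 0.301).

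The 22 genes of mTOR signalling had a median of 0.08, with 2 lower and 4 higher at an unadjusted p under 0.05. Tsc2, an inhibitor of the pathway, had a log2 fold change of 0.50 (edgeR adjusted p = 0.147), Mtor, the kinase itself, 0.39 (edgeR adjusted p = 0.197) and Rragd, a GTPase that brings mTOR complex 1 to the lysosome, -0.39 (edgeR adjusted p = 0.176). The 20 elongation factors and other TOP mRNAs had a median of -0.10, with 4 lower and 1 higher. Pabpc1, the cytoplasmic poly(A)-binding protein, was the higher one with 76.4, 64.4 and 62.3 CPM in CMNKO mice, against 56.9, 42.0 and 42.2 CPM in LC mice (log2 fold change 0.53, SE 0.15, edgeR adjusted p = 0.129). Hnrnpa1, an RNA-binding protein with a TOP mRNA, had a log2 fold change of -0.36 (edgeR adjusted p = 0.169).

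The 15 genes of ribosome quality control and storage had a median of -0.05, with 3 lower and 0 higher at an unadjusted p under 0.05. These were Nemf, which marks stalled large subunits (log2 fold change -0.46, edgeR adjusted p = 0.118), Ccdc124, a factor of idle ribosomes (log2 fold change -0.41, edgeR adjusted p = 0.149), and Serbp1, which occupies the mRNA channel of dormant ribosomes (log2 fold change -0.27, edgeR adjusted p = 0.248). The 9 genes of p53 surveillance had a median of 0.19, with 0 lower and 1 higher. Bbc3, which encodes the pro-apoptotic protein Puma, was that gene, with 3.52 to 4.47 CPM in CMNKO mice, against 1.56 to 3.15 CPM in LC mice (log2 fold change 0.81, edgeR adjusted p = 0.214). Phlda3, an inhibitor of Akt, had a log2 fold change of 0.55 (edgeR adjusted p = 0.266) and Ccng1, cyclin G1, one of -0.24 (edgeR adjusted p = 0.365).

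Some proteins of the cytosolic ribosome have symbols outside the rule. Rps3a1 had 260, 243 and 233 CPM in CMNKO mice, against 263, 291 and 380 CPM in LC mice (log2 fold change -0.34, SE 0.15, edgeR adjusted p = 0.251). Fau, whose product is cleaved to a ribosomal protein and a ubiquitin-like protein, had a log2 fold change of -0.37 (edgeR adjusted p = 0.254) and was chosen after its values were seen. Gnb2l1 had a log2 fold change of -0.20 (edgeR adjusted p = 0.474) and Rps27rt one of -0.60 (SE 0.33, edgeR adjusted p = 0.337). Both were also named after their values were seen, and in both the CMNKO and LC ranges overlapped. The proteins of the mitochondrial ribosome, 76 tested genes, had a median log2 fold change of -0.16 with 62 negative values and 0 calls by edgeR. Of them, 16 were lower and 1 higher at an unadjusted edgeR p under 0.05. Among all 13040 genes tested, 6494 values were negative, and 8.8% were lower and 10.1% higher at that p.

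Marker lists of other cells were summed in each mouse. The summed level of 8 endothelial markers was 1184 to 1437 CPM in CMNKO mice and 982 to 1193 CPM in LC mice, that of 8 smooth muscle and pericyte markers 926 to 1265 CPM in CMNKO mice and 553 to 764 CPM in LC mice, and that of 8 fibroblast markers 535 to 885 CPM in CMNKO mice and 472 to 591 CPM in LC mice. For 8 macrophage markers the sum was 284 to 414 CPM in CMNKO mice and 249 to 273 CPM in LC mice, and for 6 red blood cell genes 285 to 321 CPM in CMNKO mice and 317 to 462 CPM in LC mice, with LC 26 the highest. Atrial cardiomyocyte genes, 4 in the table, summed to 1025 to 1537 CPM in CMNKO mice and 365 to 765 CPM in LC mice, adipocyte genes to 0.753 to 12.005 CPM in CMNKO mice and 0 to 0.780 CPM in LC mice, and lymphocyte genes to 7.91 to 11.2 CPM in CMNKO mice and 10.9 to 12.8 CPM in LC mice. Over these lists edgeR called 1 gene, the smooth muscle actin Acta2, which was higher in CMNKO mice. Limma-voom called 1 gene of the smooth muscle and 1 of the atrial list. DESeq2 called 4 of the endothelial markers and 1 gene each of the cardiomyocyte, fibroblast, smooth muscle and atrial lists. The atrial gene called by limma-voom and DESeq2 was Nppa, which is also a fetal gene reactivated in hypertrophy. Over the 3 tested atrial genes the median log2 fold change was 0.02. Whether the atrial sums reflect atrial tissue was not tested. The sums overlapped between the groups in the endothelial, fibroblast, red blood cell, adipocyte and lymphocyte lists. No gene of the table was at 0 in every mouse, so a marker without reads would have no row. The table held 4 of 6 listed atrial, 5 of 6 adipocyte, 6 of 8 red blood cell and 8 of 9 macrophage genes. The part of these cells in the levels of the members was not tested.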

How the data were processed

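Left ventricles of 3 CMNKO and 3 LC mice were analysed, 1 library per mouse. After TRIzol extraction, TruSeq libraries were prepared and sequenced. The authors deposited raw, whole-number read counts per gene symbol without normalization. The genome build is mm8 in the submitters' processing notes, and the aligner, counter and test of the authors were not given in the sources used here. Columns with the authors' own group means, fold changes and FDR values were left aside.

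The comparison used edgeR 4.0.16 in R 4.3.3 (filterByExpr, TMM, quasi-likelihood test, Benjamini-Hochberg adjustment over 13040 genes, threshold 0.05). The procedure was also run on simulated counts. These had the same dispersion for every gene and no difference between libraries other than depth and the genes changed. They therefore do not test the procedure under the differences among LC libraries seen here. Alternatives were DESeq2 1.42.0, limma-voom (limma 3.58.1), other scalings and filters, library series in the model, pseudogene rows added to parents, no mitochondrially encoded genes and each mouse left out. The GC content and length correction was chosen after seeing the data. A paralog pair needed 10 counts of each gene in every library. Transcript length and GC content came from GENCODE transcripts. Each library is 1 mouse, so p-values measure the spread between mice.

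Named genes are Rpl3l and the other paralog pairs, members past the threshold, the 5 smallest p in each direction, the 5 highest and 5 lowest levels, the stalk proteins, Rpsa, and of each pathway list the genes past the threshold and the 3 smallest p. The members and lists were chosen with earlier results of these data known. Values of single genes that are not reported here remain in the counts and medians.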

Additional observations from a re-analysis of the deposited data

How the results depend on the processing

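No paired analysis was possible because no CMNKO mouse shares a number with an LC mouse. The alternatives are those named in the processing section, of which the GC content and length correction was chosen after seeing the data. Among all genes the 79 calls became 361 by DESeq2 (215 higher), 171 after the GC content and length correction (58 higher), 128 by upper-quartile scaling, 44 by library totals (24 higher) and 22 with library series in the model (2 higher), and 0 to 2624 without single mice, the highest without LC 15 and 0 without CMNKO 16 or CMNKO 17. Members called numbered 1 by DESeq2 and 0 to 24 without single mice, 24 (23 lower, 1 higher) without LC 15, where the controls are LC 25 and LC 26 alone and 1035 of 13495 genes were lower and 1589 higher, and 0 in each other alternative.

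The members' median log2 fold change was negative under every alternative. It was -0.071 with library series in the model, -0.10 after the GC content and length correction and -0.14 by library totals, where the median of all genes was 0.12, and ran from -0.35 to -0.13 without single mice. The share difference was -0.25 percentage points without mitochondrially encoded genes and ran from -0.16 to -0.014 without single mice. The large to small ratio difference was 0.045 to 0.071 without single mice. Rpl36al to Rpl36a turned to 0.080 with pseudogene rows added, Rpl7l1 to Rpl7 ran from -0.030 to 0.15 and Rpl22l1 to Rpl22 from -0.12 to 0.092 without single mice.

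Of 44 named genes tested, 10 changed sign under some alternative, none of them past the threshold in either fit. After the GC content and length correction the log2 fold change was 0.12 for Rps27l, 0.16 for Rpl10 and 0.027 for Rplp1. With library series in the model it was 0.069 for Rpl7, 0.34 for Rpl10, 0.093 for Rpl4 and 0.0091 for Rplp1. By library totals it was 0.057 for Rpl10 and 0.0025 for Rpl4. With pseudogene rows added it was -0.35 for Rpl36a, -0.059 for Rps27 and -0.25 for Rpl28, and by upper-quartile scaling -0.010 for Rpl36a and -0.027 for Rpl28. Without single mice Rpl10 ran from -0.24 to 0.18, Rpl36a from -0.13 to 0.23, Rps27 from -0.077 to 1.24, Rps6 from -0.039 to 0.34, Rplp0 from -0.14 to 0.40, Rpl4 from -0.23 to 0.033 and Rpl28 from -0.23 to 0.40. The cause of these changes was not tested. Depth limits members under about 10 counts per mouse, such as Rps13 and Rpl39l.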
